A study of Homo sapiens with 6 samples.

Results

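The histone cluster genes are the protein-coding genes of the deposited table whose symbol begins with HIST1H, HIST2H, HIST3H or HIST4H, 71 of its 58735 genes. Of these, 24 reached an FPKM (read fragments per length of gene, relative to the library total) of at least 1 in at least 2 libraries and were tested, and 47 did not. Of these 47, 34 were above 0 in at least 1 library and 13 were listed at 0 in all 6 libraries. The rule for members used symbols and biotypes and no expression value, but it was set with earlier results of these data known.

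The libraries came from KYSE30 cells, an established line of human oesophageal squamous cell carcinoma. The groups were cells given si-RAB23-1, cells given si-RAB23-9, which are siRNAs against the small GTPase gene RAB23, and cells given the control siRNA si-NC, with 2 libraries each. Every group received 100 nM siRNA with the HiPerFect reagent, and total RNA was taken with Trizol near 80% confluence. The labels name 1 cell line and do not say whether the biological replicates of a group were separate cultures, so a p-value speaks of the scatter among these libraries, and part of that may be technical. RAB23 itself averaged 1.06 ± 0.0470 FPKM with si-RAB23-1 and 1.23 ± 0.0621 FPKM with si-RAB23-9, against 3.30 ± 0.0483 FPKM with si-NC (SD, n = 2 each; limma adjusted p = 0.0031 and 0.0039). Reads recovered from the FPKM numbered 17211025 to 24178125 a library, of which the histone genes held 0.0230% to 0.0343%. Of 8 squamous markers, 6 reached 1 FPKM in every library, and their sum was 70.3 to 75.1 with si-RAB23-1, 42.3 to 44.1 with si-RAB23-9 and 49.7 to 51.0 with si-NC. Summed leukocyte markers stayed at or below 0.283 FPKM, columnar markers at or below 0.744, fibroblast markers at 3.44 to 3.92 and endothelial markers at 1.62 to 3.79. In bulk RNA, fewer cells that express a gene and less of its RNA per cell cannot be told apart.

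Core histones H2A, H2B, H3 and H4 form the spool on which DNA is wound, and linker histone H1 binds the DNA between spools. Most genes of these clusters are replication-dependent: their mRNAs are made in S phase, lack introns and end, without a poly(A) tail, in a conserved stem-loop that binds the protein SLBP. Some cluster genes also give polyadenylated mRNAs that run past the stem-loop, which are known from differentiated and non-dividing cells. The sources used here do not give whether the libraries were selected for poly(A).

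The stem-loop was looked for in the GENCODE 29 transcripts as 6 stem bases, 4 loop bases and 6 closing bases. It was present in a transcript of 32 of the 71 genes and of 18 of the 24 tested. The forms of 8 genes whose levels passed a test are shown because they mark the 2 kinds of annotated end, with or without a long tail of sequence behind the loop. Capitals mark the 16 bases of the stem-loop.
HIST1H2BC-202: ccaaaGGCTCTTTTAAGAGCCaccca
HIST1H2BD-202: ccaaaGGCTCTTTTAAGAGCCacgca
HIST1H2AC-202: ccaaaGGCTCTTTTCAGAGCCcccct
HIST2H2BE-201: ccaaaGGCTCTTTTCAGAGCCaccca
HIST3H2A-201: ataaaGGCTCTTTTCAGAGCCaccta
HIST1H2AG-201: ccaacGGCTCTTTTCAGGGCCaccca
HIST1H3E-201: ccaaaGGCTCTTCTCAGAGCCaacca
HIST1H4I-201: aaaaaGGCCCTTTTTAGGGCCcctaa
Among the tested genes 9 carried the form printed for HIST1H2AC, 3 carried that of HIST1H2BC (the others being HIST1H2BD and HIST3H3), and HIST1H3E, HIST1H2AG and HIST1H4I each had a form that no other tested gene shared. In HIST1H2AG the stem does not pair fully by Watson-Crick rules. The annotated transcript went on for 1114 bases behind the loop in HIST1H2AC-202, 1729 in HIST2H2BE-201 and 1761 in HIST1H2AG-201, but for 116 in HIST1H2BC-202 and 39 in HIST1H2BD-202. HIST1H2BC and HIST1H2BD each also have an annotated transcript without a stem-loop.

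How the gene model ends went with whether a gene was measured. Of 33 genes annotated as coding sequence only, 5 were tested (HIST1H2BK, HIST1H1C, HIST1H4K, HIST1H2BO and HIST2H2AC), and the median of their mean FPKM was 0.110 over all 33. Of 23 genes whose transcript runs 100 or more bases past the loop, 13 were tested, with a median of 1.34. Of 9 genes whose transcripts with the loop all end near it 5 were tested (median 1.04), and of 6 with longer transcripts and no stem-loop only HIST1H2BJ was (median 0.490). HIST1H2BD is counted among the 9, though its other annotated transcript has no stem-loop. All 13 genes at 0 had gene models under 1000 bases. Short models also collect fewer reads, and the part of length in this was not tested.

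By class, 1 of 6 H1 genes, 6 of 17 H2A genes, 9 of 18 H2B genes, 3 of 15 H3 genes and 5 of 15 H4 genes were tested. Most lie in the HIST1 cluster on chromosome 6 (55 genes, 19 tested), with 12 HIST2 and 3 HIST3 genes on chromosome 1 and HIST4H4 on chromosome 12. Levels spanned more than 2 orders of magnitude, and only 8 of the 24 averaged at least 5 FPKM. The closest genes below the filter were HIST1H4C (mean 0.729 FPKM), HIST1H4D (0.729), HIST2H2AA3 (0.714), HIST1H2BF (0.672) and HIST1H1E (0.635), and the lowest mean among those tested was 0.860, for HIST2H2AC. The coding parts of genes of 1 class are near-identical, and the sources used here do not give how reads shared between copies were assigned, so each gene's level is uncertain to that extent.

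**Figure D1:**
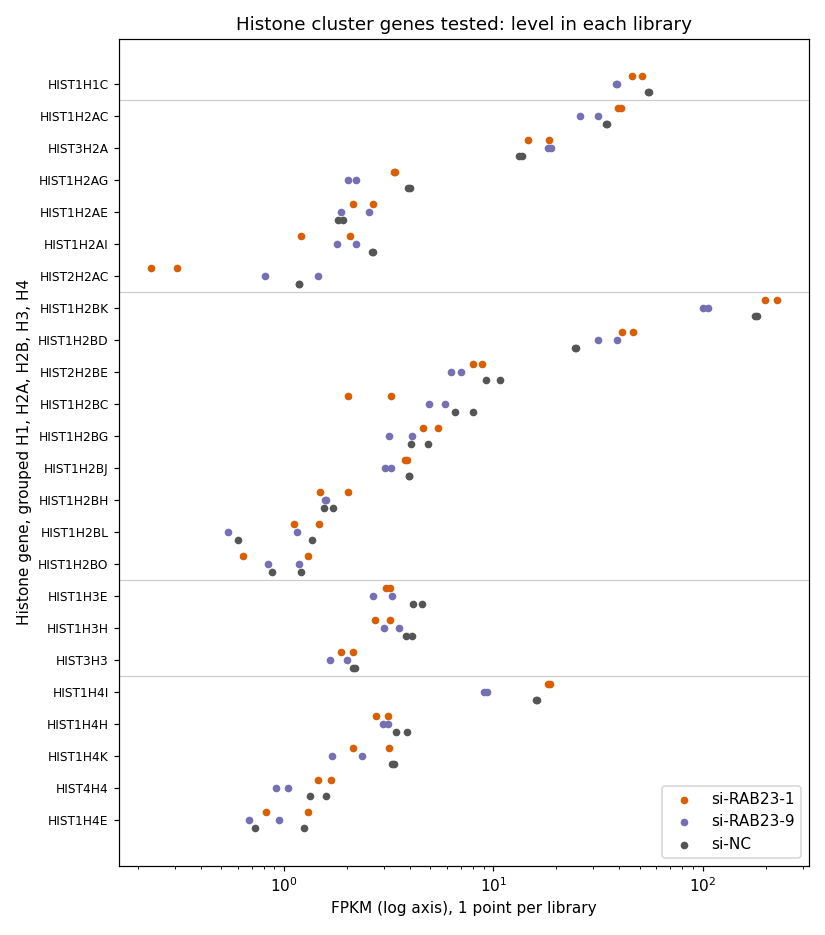
FPKM of the 24 tested histone genes on a log axis, 1 point per library, with si-RAB23-1 above si-RAB23-9 above si-NC in each row and rows grouped by class. HIST1H2BK is highest in all 6 libraries, its si-RAB23-9 points (101 and 106) lie left of the rest, and the HIST1H2BC and HIST2H2AC points of si-RAB23-1 lie left of those of the other groups.

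With si-RAB23-1, HIST1H2BD and HIST1H4I rose and HIST1H2BC and HIST2H2AC fell against si-NC. Thus 2 of 24 were called higher, where 8.13% of all 14352 genes tested were, and 2 called lower, where 7.26% were. In either direction 16.7% of the histone genes and 15.4% of all genes were called, so the share was near the background. One of the lower calls, HIST2H2AC, had 2 reads in each si-RAB23-1 library and passed the filter only through libraries of the other groups, where it is high, so its call was in part built in by the filter. The median log2 difference of the 24 was -0.05, against 0.01 over all genes, and 13 of 24 values were below 0.

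With si-RAB23-9, HIST1H2BK, HIST1H4I, HIST1H2AG, HIST2H2BE, HIST1H1C, HIST1H3E and HIST1H2BJ fell, and HIST1H2BD and HIST3H2A rose. That is 7 of 24 called lower, where 5.69% of all genes were, and 2 called higher, where 7.56% were. The share called in either direction was 37.5% for the histone genes and 13.3% for all genes. The median log2 difference was -0.25, against 0.01 over all genes, and 21 of 24 values were below 0. Both comparisons use the same si-NC libraries. A call is a limma adjusted p under 0.05 on log2(FPKM + 1), a scale that understates the change of low genes, and the median standard error was 0.103 for the histone genes and 0.0697 for all genes.

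Set directly against si-RAB23-1, si-RAB23-9 left HIST1H2BK, HIST1H4I, HIST1H2AG, HIST1H2AC, HIST1H1C and HIST1H2BJ lower and HIST1H2BC and HIST2H2AC higher. These are 6 of 24 lower, where 9.89% of all genes were, and 2 higher, where 11.1% were (33.3% of the histone genes and 21.0% of all genes in either direction). Of the higher calls, that of HIST2H2AC was likewise in part built in by the filter. Over the 3 comparisons 12 of the 24 genes were called at least once, as were 30.7% of all genes. HIST1H2BD and HIST1H4I were called with both siRNAs, HIST1H2BD in the same direction and HIST1H4I in opposite ones. Leaving out any 1 library spared only the calls of HIST1H2BK, HIST1H4I and HIST1H2AG, in si-RAB23-9 against si-NC and against si-RAB23-1. None of the 4 calls of si-RAB23-1 against si-NC survived all 6 omissions.

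**Figure D2:**
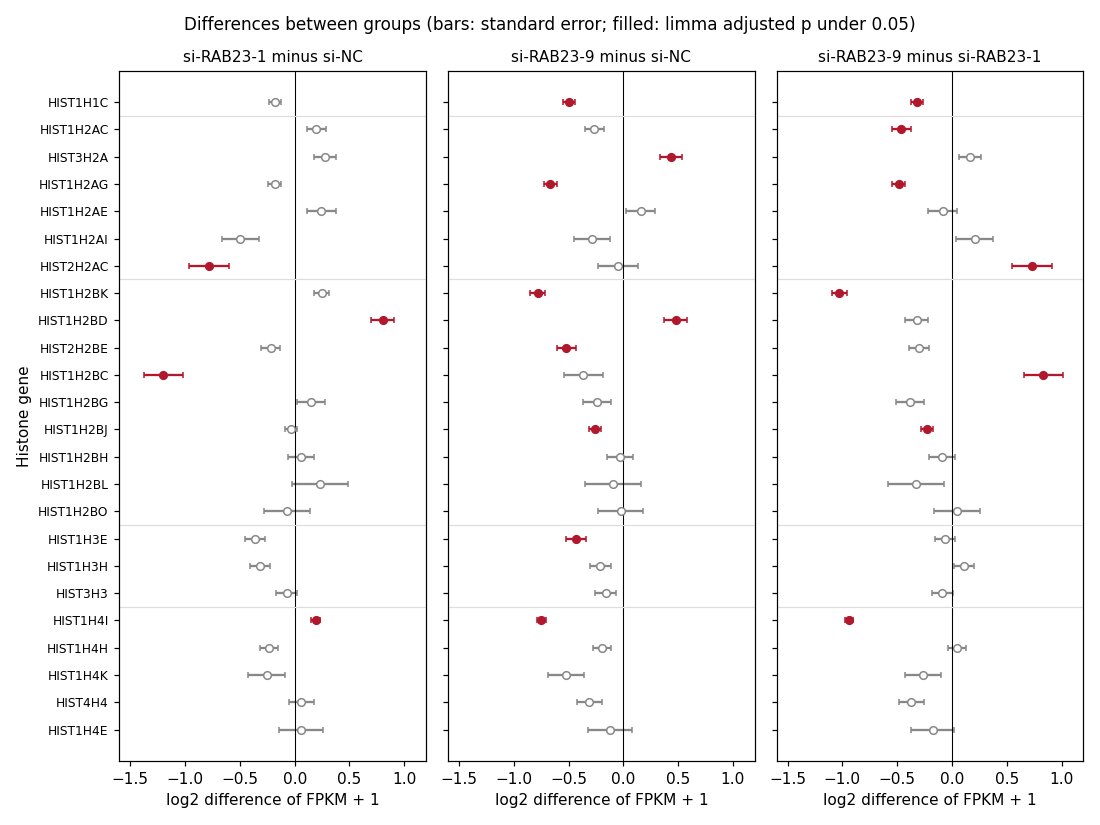
Log2 difference of FPKM + 1 for the 24 tested histone genes in the 3 comparisons, with bars for the standard error and filled points for a limma adjusted p under 0.05. In the middle panel 7 filled points lie left of 0 and 2 right of it, and HIST1H2BK and HIST1H4I stand right of 0 in the left panel and left of 0 in the other panels.

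Among the genes tested, the highest level and the 2 largest log2 differences were those of H2B genes. HIST1H2BK (chromosome 6, 27146418 to 27146798, minus strand), an H2B gene annotated in the table by its coding sequence of 381 bases, had 198 and 227 FPKM with si-RAB23-1 and 101 and 106 FPKM with si-RAB23-9, against 181 and 177 FPKM with si-NC. The si-RAB23-9 libraries were lowest, the si-RAB23-1 libraries highest, and no groups overlapped. The log2 difference was -0.78 for si-RAB23-9 against si-NC (SE 0.0667, limma adjusted p = 0.0039) and -1.03 for si-RAB23-9 against si-RAB23-1 (limma adjusted p = 0.0014). For si-RAB23-1 against si-NC it was 0.25 and missed the threshold (limma adjusted p = 0.0625), but passed without si-RAB23-1 replicate 1 (0.0262).

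HIST1H2BD (26158146 to 26171349, plus strand), an H2B gene whose span in the table overlaps the pseudogene LARP1P1 and the antisense gene AL353759.1, was higher with both siRNAs. It had 41.3 and 46.6 FPKM with si-RAB23-1 and 31.4 and 38.8 FPKM with si-RAB23-9, against 24.6 and 24.9 FPKM with si-NC. All 4 RAB23 siRNA libraries lay above both si-NC libraries. The log2 differences were 0.80 with si-RAB23-1 (SE 0.105, limma adjusted p = 0.0094) and 0.48 with si-RAB23-9 (limma adjusted p = 0.0388). Removing either si-NC library ended both calls (limma adjusted p up to 0.0640 for si-RAB23-1), and the si-RAB23-9 call also ended without si-RAB23-9 replicate 2 (up to 0.156). The overlapping genes averaged 0.685 FPKM for LARP1P1 and 0.226 FPKM for AL353759.1, far below HIST1H2BD.

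HIST1H2BC (26114873 to 26123926, minus strand), an H2B gene, had 2.03 and 3.24 FPKM with si-RAB23-1 and 5.84 and 4.93 FPKM with si-RAB23-9, against 6.53 and 7.97 FPKM with si-NC. These FPKM stood for 28 and 60 reads with si-RAB23-1 and for 92 and 73 with si-RAB23-9, against 130 and 130 with si-NC. The si-RAB23-1 libraries were below all others, at a log2 difference of -1.199 from si-NC (SE 0.178, limma adjusted p = 0.0129). Against si-RAB23-1, si-RAB23-9 was higher by 0.83 (limma adjusted p = 0.0279), while si-RAB23-9 against si-NC gave -0.37 and missed the threshold (limma adjusted p = 0.238). Removing either si-NC library ended the call against si-NC (up to 0.0829). The call between the siRNAs ended on removal of si-RAB23-1 replicate 1 or of either si-RAB23-9 library (up to 0.124). HIST1H2BC is the one tested histone gene whose transcripts hold the 7-mer GACATAT, chosen from earlier results of these data and carried by 17.2% of the 10952 genes scanned. Its copies begin at bases 211 and 416 of HIST1H2BC-201 and are shown because this gene fell most with si-RAB23-1, with the 7-mer in capitals. The 7-mer was taken from these same data, and a link between it and the fall was not tested.
HIST1H2BC-201, first copy: ctttcgttaacGACATATttgagcgcatcg
HIST1H2BC-201, second copy: aacagcttttaGACATATcttttccaacag
The 7-mer AAGTTAA, chosen in the same way for si-RAB23-9, is carried by 32.1% of the genes scanned and by the tested histone genes HIST1H2AG and HIST1H3E, which fell with si-RAB23-9, and HIST1H2BH and HIST1H4E, which were not called. The transcripts of HIST1H2BK and HIST1H4I in GENCODE 29 do not hold it. That of HIST1H2BK has 381 bases, of which 378 are coding. The 5 tested genes annotated as coding sequence only, HIST1H2BK among them, gave no further sequence to scan for either 7-mer. The siRNA sequences were not used here, and a match of letters is a description.

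Among the other H2B genes, HIST2H2BE and HIST1H2BJ fell with si-RAB23-9. HIST2H2BE had 8.80 and 8.02 FPKM with si-RAB23-1 and 7.02 and 6.27 FPKM with si-RAB23-9, against 10.7 and 9.23 FPKM with si-NC (log2 difference of si-RAB23-9 from si-NC -0.52, SE 0.0891, limma adjusted p = 0.0196). HIST1H2BJ had 3.88 and 3.79 FPKM with si-RAB23-1 and 3.23 and 3.03 FPKM with si-RAB23-9, against 3.97 and 3.93 FPKM with si-NC (-0.26, limma adjusted p = 0.0346). Removing any single library of either group ended both calls (limma adjusted p up to 0.110 for HIST2H2BE and 0.170 for HIST1H2BJ). The call of HIST1H2BJ between the siRNAs (-0.23, limma adjusted p = 0.0382) was lost without any 1 of the 6 libraries (up to 0.177), and both of its calls were lost with limma-voom on the recovered reads. HIST1H2BG had 5.43 and 4.63 FPKM with si-RAB23-1 and 3.17 and 4.08 FPKM with si-RAB23-9, against 4.04 and 4.87 FPKM with si-NC, and the groups overlapped si-NC. HIST1H2BH (1.48 to 2.02 FPKM over the 6 libraries), HIST1H2BL (0.542 to 1.47) and HIST1H2BO (0.634 to 1.30) overlapped between all groups.

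Of the H2A genes, HIST1H2AG fell furthest with si-RAB23-9. HIST1H2AG (27133042 to 27135291, plus strand) had 3.38 and 3.34 FPKM with si-RAB23-1 and 2.02 and 2.20 FPKM with si-RAB23-9, against 3.891 and 4.001 FPKM with si-NC, from 86 to 209 reads a library. The si-RAB23-9 libraries were lowest and no groups overlapped. Against si-NC the log2 difference was -0.67 (SE 0.0605, limma adjusted p = 0.0042), and against si-RAB23-1 it was -0.49 (limma adjusted p = 0.0066), with the largest adjusted p 0.0469 and 0.0435 when 1 library was left out.

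HIST1H2AC, the most abundant H2A gene here, had 39.2 and 40.9 FPKM with si-RAB23-1 and 26.1 and 31.7 FPKM with si-RAB23-9, against 34.9 and 34.6 FPKM with si-NC. The siRNAs lay on opposite sides of si-NC without overlap, at 0.20 and -0.27 on the log2 scale. Neither passed the threshold (limma adjusted p = 0.192 and 0.109), though both did with limma-voom and TMM sizes (limma-voom adjusted p = 0.0278 and 0.0033). The difference between the siRNAs did pass, at -0.46 for si-RAB23-9 against si-RAB23-1 (SE 0.0882, limma adjusted p = 0.0201), and ended on removal of either si-RAB23-1 library (up to 0.0689).

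HIST3H2A, an H2A gene of the small cluster on chromosome 1, moved the other way from most, with 14.6 and 18.4 FPKM with si-RAB23-1 and 18.2 and 18.8 FPKM with si-RAB23-9, against 13.2 and 13.7 FPKM with si-NC. The rise with si-RAB23-9 was 0.43 (SE 0.101, limma adjusted p = 0.0456). It ended on removal of any single library of these groups (up to 0.189) and just missed the threshold under both other scalings (0.050 with median-of-ratios, 0.051 with TMM).

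HIST2H2AC rested on very few reads: 2 in each si-RAB23-1 library, 6 and 10 in the si-RAB23-9 libraries, against 11 and 9 in the si-NC libraries. It passed the filter through si-NC and 1 si-RAB23-9 library, where it was highest, so that some difference was built into its selection. It had 0.310 and 0.231 FPKM with si-RAB23-1 and 0.814 and 1.45 FPKM with si-RAB23-9, against 1.18 FPKM in each si-NC library. Summed reads per library total with si-RAB23-1 were 0.220 of those with si-NC, with an exact 95% interval of 0.0546 to 0.656 that covers counting error only. The log2 difference was -0.78 (limma adjusted p = 0.0414), a call that ended on removal of any single library of these groups (up to 0.168). That of si-RAB23-9 against si-RAB23-1 was 0.73 (limma adjusted p = 0.0409), lost without any 1 of the 6 libraries (up to 0.173). HIST1H2AE (1.81 to 2.65 FPKM) and HIST1H2AI (at most 2.66 FPKM) passed no comparison.

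The linker gene HIST1H1C, for histone H1.2, was the second most abundant of the genes. It had 46.0 and 51.4 FPKM with si-RAB23-1 and 38.6 and 39.0 FPKM with si-RAB23-9, against 55.5 and 54.9 FPKM with si-NC, in 3 separate levels with si-RAB23-9 lowest. It fell with si-RAB23-9 by 0.50 on the log2 scale (log2 difference -0.50, SE 0.0555, limma adjusted p = 0.0067) and was lower than with si-RAB23-1 (-0.32, limma adjusted p = 0.0161). For si-RAB23-1 against si-NC the value was -0.18 (limma adjusted p = 0.0875), which passed without si-RAB23-1 replicate 2 (0.0208). The call against si-NC ended on removal of any single library of these groups (up to 0.0608), and the call between the siRNAs on removal of either si-RAB23-9 library (up to 0.0848).

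The H3 genes were low, and all 3 tested averaged less than with si-NC in both siRNA groups. HIST1H3E had 3.22 and 3.07 FPKM with si-RAB23-1 and 2.67 and 3.28 FPKM with si-RAB23-9, against 4.13 and 4.56 FPKM with si-NC. All 4 siRNA libraries were below both si-NC libraries, at -0.37 with si-RAB23-1 (limma adjusted p = 0.0510) and -0.43 with si-RAB23-9 (SE 0.0917, limma adjusted p = 0.0363). With limma-voom and TMM sizes the fall with si-RAB23-1 was called (limma-voom adjusted p = 0.0063). The second call was lost without any 1 of the 6 libraries (up to 0.179), and the first value passed under both other scalings and without either si-RAB23-9 library (as low as 0.0478). HIST1H3H had 2.73 and 3.20 FPKM with si-RAB23-1 and 2.996 and 3.554 FPKM with si-RAB23-9, against 4.063 and 3.805 FPKM with si-NC, also without overlap and without a call. HIST3H3 ranged from 1.65 to 2.18 FPKM.

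Of the H4 genes only HIST1H4I was called. HIST1H4I (27138588 to 27139881, plus strand) had 18.6 and 18.3 FPKM with si-RAB23-1 and 9.00 and 9.32 FPKM with si-RAB23-9, against 16.2 and 15.9 FPKM with si-NC. The replicates were close and the groups apart, with si-RAB23-9 lowest and si-RAB23-1 highest. The log2 difference was -0.75 for si-RAB23-9 against si-NC (SE 0.0387, limma adjusted p = 0.0014) and -0.94 against si-RAB23-1 (limma adjusted p = 0.00099). For si-RAB23-1 against si-NC it was 0.19 (limma adjusted p = 0.0294), a call lost without any 1 of the 6 libraries (up to 0.152). That call was also lost with limma-voom and TMM sizes (limma-voom adjusted p = 0.0894). HIST1H4H (2.73 to 3.85 FPKM), HIST1H4K (1.70 to 3.36), HIST4H4 (0.918 to 1.67) and HIST1H4E (0.676 to 1.30) were not called. With limma-voom and TMM sizes HIST4H4 was lower with si-RAB23-9 than with si-RAB23-1 (limma-voom adjusted p = 0.0255).

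HIST1H4I and HIST1H2BK changed side by side, and their annotations meet. RefSeq (GRCh38.p14) gives HIST1H2BK, there named H2BC12, a span of 8566 bases on the minus strand (27138293 to 27146858) that encloses HIST1H4I on the plus strand, whereas the table's model is the coding sequence alone. HIST1H4I stood at 9.38% and 8.08% of the HIST1H2BK level with si-RAB23-1 and at 8.93% and 8.76% of it with si-RAB23-9, against 8.96% and 9.01% with si-NC. The highest of these ratios was 1.16 times the lowest, the narrowest range of the 23 other tested genes set against HIST1H2BK, with HIST4H4 next at 1.42. Counting error widens the range of genes with few reads, so this order may in part be one of depth. HIST1H4I had 214 to 527 reads a library, whereas HIST2H2AC, with the widest range, had 2 to 11. The sources used here give no strandedness for the libraries, so reads of the 2 genes in the shared span cannot be told apart. The table's HIST1H2BK model (27146418 to 27146798) lies outside HIST1H4I. By these positions, such reads could be counted under HIST1H4I but not under HIST1H2BK.

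**Figure D3:**
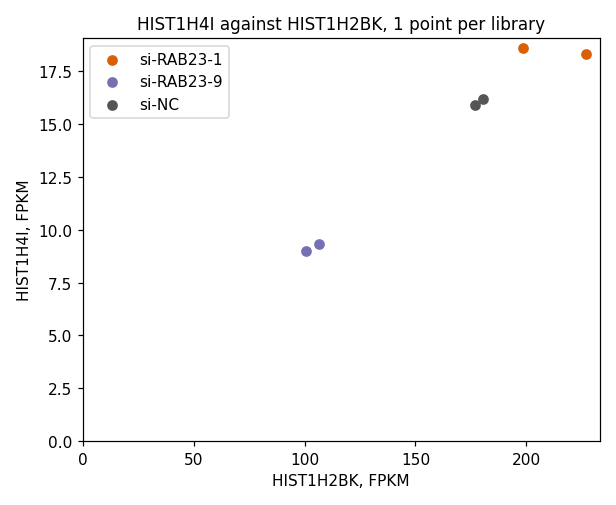
FPKM of HIST1H4I against FPKM of HIST1H2BK, both axes from 0, 1 point per library. The si-RAB23-9 points lie at 9.00 and 9.32 FPKM of HIST1H4I and near 101 and 106 FPKM of HIST1H2BK, apart from the points of the other groups.

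Summed over all 71 genes, histone FPKM was 439 ± 31.1 with si-RAB23-1 and 289 ± 17.3 with si-RAB23-9, against 393 ± 2.05 with si-NC (SD, n = 2 each). The sum with si-RAB23-9 was 0.734 of that with si-NC, and both its libraries were below the other 4. The 70 genes other than HIST1H2BK held 51.6% of the sum with si-RAB23-1 and 64.1% with si-RAB23-9, against 54.6% with si-NC. Without HIST1H2BK the ratio was 0.862, and without HIST1H2BK and HIST1H4I it was 0.886. For si-RAB23-1 over si-NC the ratio was 1.12 with all genes and 1.06 without HIST1H2BK.

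By class, the sums with si-RAB23-1 were 0.901 of si-NC for H1, 1.11 for H2A, 1.201 for H2B, 0.697 for H3 and 1.06 for H4. For si-RAB23-9 over si-NC the ratios were 0.714 for H1, 0.945 for H2A, 0.692 for H2B, 0.739 for H3 and 0.665 for H4. Some of these sums rest largely on 1 gene. HIST1H1C held 48.7 of 50.6 FPKM of H1 with si-RAB23-1, 38.8 of 40.1 with si-RAB23-9 and 55.2 of 56.2 with si-NC. For HIST1H4I within H4 the values were 18.5 of 29.5, 9.16 of 18.4 and 16.1 of 27.7 FPKM, in the same order. H2B without HIST1H2BK stood at 1.24 with si-RAB23-1 and 1.05 with si-RAB23-9, so its sum was below si-NC with si-RAB23-9 only when HIST1H2BK was counted. HIST1H2BD, which rose with both siRNAs, weighed heavily in this remainder. It held 43.9 of 70.2 FPKM with si-RAB23-1, 35.1 of 59.4 with si-RAB23-9 and 24.7 of 56.7 with si-NC. The remainder therefore does not speak for the other H2B genes. H3 was below si-NC in all 4 siRNA libraries, at 9.13 and 9.75 FPKM with si-RAB23-1 and 9.28 and 10.8 FPKM with si-RAB23-9, against 13.7 and 13.4 FPKM with si-NC. These sums are descriptions and carry no test.

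**Figure D4:**
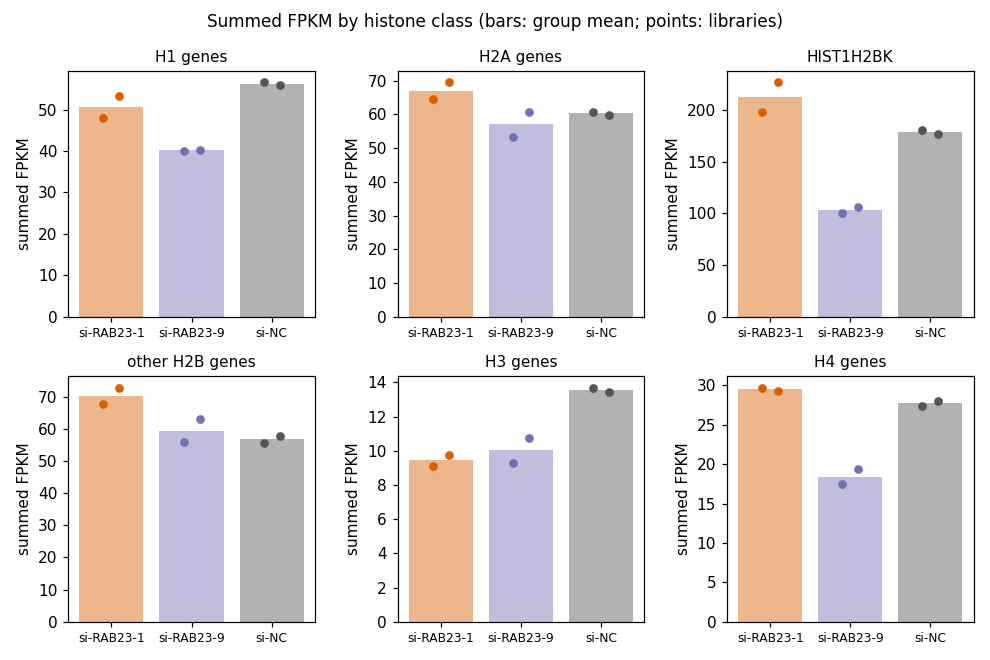
Summed FPKM of the H1, H2A, H3 and H4 genes, of HIST1H2BK and of the other H2B genes, with bars for the group mean and points for the 2 libraries, each vertical axis from 0. HIST1H2BK is near 100 with si-RAB23-9, and the H3 sum is near 10 with both siRNAs and above 13 with si-NC.

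Many of these genes lie head to head with a partner on the opposite strand. In 12 pairs the start sites are within 1000 bases, and in 5 pairs both genes were tested, each an H2B gene beside an H2A gene. Promoter stretches of 3 genes are shown because they lie before H2B genes that moved differently: HIST1H2BC, which shares its stretch with HIST1H2AC, HIST1H2BJ, which shares its own with HIST1H2AG, and HIST1H2BD, whose level rose. They are RefSeq sequences of GRCh38.p14, from 250 bases before to 50 after the start. Capitals mark, on either strand and also where they overlap, the octamer core ATGCAAA, the CCAAT box CCAAT and the TATA box TATAAA.
HIST1H2BC promoter, chr6:26123877-26124176, minus strand: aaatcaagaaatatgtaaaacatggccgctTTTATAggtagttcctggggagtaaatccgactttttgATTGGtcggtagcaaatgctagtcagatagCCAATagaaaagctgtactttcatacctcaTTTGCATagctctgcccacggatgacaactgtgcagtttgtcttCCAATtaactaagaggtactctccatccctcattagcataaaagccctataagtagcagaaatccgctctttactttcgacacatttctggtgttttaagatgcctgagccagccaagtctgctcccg
HIST1H2BJ promoter, chr6:27132746-27133045, minus strand: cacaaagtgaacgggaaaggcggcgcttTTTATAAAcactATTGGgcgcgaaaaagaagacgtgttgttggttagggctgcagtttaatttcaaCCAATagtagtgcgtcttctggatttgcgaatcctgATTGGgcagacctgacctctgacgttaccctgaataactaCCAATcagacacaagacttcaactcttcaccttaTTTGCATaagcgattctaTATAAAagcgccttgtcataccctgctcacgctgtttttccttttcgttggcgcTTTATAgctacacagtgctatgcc
HIST1H2BD promoter, chr6:26157871-26158170, plus strand: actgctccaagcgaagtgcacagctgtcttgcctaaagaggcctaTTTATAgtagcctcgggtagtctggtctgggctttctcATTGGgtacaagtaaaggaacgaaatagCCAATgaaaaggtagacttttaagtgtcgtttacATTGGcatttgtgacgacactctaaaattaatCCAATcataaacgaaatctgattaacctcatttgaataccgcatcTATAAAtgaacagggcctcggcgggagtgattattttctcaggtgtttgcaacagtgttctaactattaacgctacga
RefSeq promoters matched 66 of the 71 genes and all 24 tested. The octamer core was in 26 of 66 (39.4%), against 4.51% of all 27305 promoters, and by class in 14 of 18 H2B, 11 of 16 H2A, 1 of 13 H3, 0 of 6 H1 and 0 of 13 H4 promoters. CCAAT was in 56 of 66 (84.8%, against 35.7% of all) and TATAAA in 44 of 66 (66.7%, against 11.95%). The 66 are not separate sequences. Partners that lie head to head share bases, so 1 motif can count for both genes and may belong to either. The H3 promoter with the octamer core is that of HIST1H3D, whose stretch is the same as that of HIST1H2AD. The HIST1H2BD stretch holds no ATGCAAA, and those of HIST1H2BC and HIST1H2BJ do.

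Partners across 1 stretch had the same calls in 3 of the 5 pairs and different ones in the rest. Only HIST1H2BJ and HIST1H2AG shared a call, and the other matching pairs had none. Over all genes tested 30.7% were called in any of the 3 comparisons, so most genes had no call. HIST1H2BC fell with si-RAB23-1 while HIST1H2AC, 219 bases away, was at 0.20 and not called. HIST1H2BJ and HIST1H2AG, 292 bases apart, were both lower with si-RAB23-9, at -0.26 and -0.67 against si-NC, and both also against si-RAB23-1. HIST2H2BE fell with si-RAB23-9 and HIST2H2AC with si-RAB23-1 (323 bases). Neither HIST1H2BG and HIST1H2AE (283 bases) nor HIST1H2BL and HIST1H2AI (268 bases) had a call. HIST1H2AH, 331 bases from HIST1H2BK, did not pass the filter. Differences between the partners' changes were not tested.

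**Figure D5:**
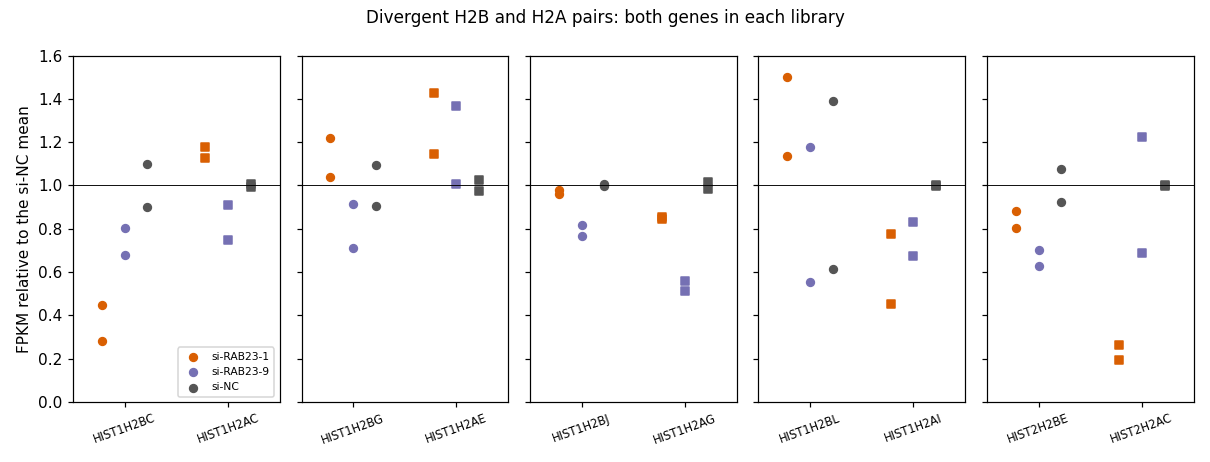
FPKM of each gene divided by its si-NC mean for the 5 divergent pairs in which both genes were tested, 1 point per library, circles for the H2B gene and squares for the H2A gene, with si-RAB23-1 left of si-RAB23-9 left of si-NC. In the first panel the si-RAB23-1 points of HIST1H2BC lie lowest while those of HIST1H2AC lie above 1, and in the third panel the si-RAB23-9 points are lowest for both genes.

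Genes that act on histone mRNA were also read. Of 24 tested genes for its 3′-end processing, transcription and decay, 1 rose and 3 fell with si-RAB23-1, and 0 rose and 1 fell with si-RAB23-9. Over all genes tested, 8.13% were called higher and 7.26% lower with si-RAB23-1, and 7.56% higher and 5.69% lower with si-RAB23-9, and these few calls lie around those shares. ERI1, a 3′ exonuclease that trims and degrades histone mRNA at the stem-loop, had 7.87 and 7.37 FPKM with si-RAB23-1 and 13.4 and 13.5 FPKM with si-RAB23-9, against 14.4 and 14.9 FPKM with si-NC. The si-RAB23-1 libraries were far below the rest, with a log2 difference from si-NC of -0.86 (SE 0.0466, limma adjusted p = 0.0018) that held with any 1 library left out. LSM11, a subunit of the U7 particle that guides the cut (-0.46, limma adjusted p = 0.0141), and TUT7, a uridylyl transferase of histone mRNA decay (-0.36, limma adjusted p = 0.0230), also fell, and the cap-binding gene NCBP2 rose (0.25, limma adjusted p = 0.0274). With si-RAB23-9 the cleavage factor gene CSTF2 fell (-0.25, limma adjusted p = 0.0183). Removing either si-NC library ended each of these 4 calls (limma adjusted p up to 0.0930, 0.120, 0.135 and 0.114). SLBP, the stem-loop binder itself, was at 35.5 and 34.2 FPKM with si-RAB23-1 and 38.5 and 36.4 FPKM with si-RAB23-9, against 35.3 and 35.0 FPKM with si-NC, and was not called.

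Most replacement histone genes are expressed outside S phase and make polyadenylated mRNA. They gave 0 higher and 3 lower of 11 with si-RAB23-1, and 2 higher and 2 lower with si-RAB23-9. Against these stand all-gene shares of 8.13% higher and 7.26% lower for si-RAB23-1, then 7.56% higher and 5.69% lower for si-RAB23-9. H3F3B, for histone H3.3, was at 121 and 120 FPKM with si-RAB23-1 and 121 and 120 FPKM with si-RAB23-9, against 136 and 133 FPKM with si-NC (log2 difference -0.16 in both, limma adjusted p = 0.0205 and 0.0226). H2AFX (-0.35) and H2AFV (-0.23) fell with si-RAB23-1, and H2AFV fell (-0.19) while CENPA (0.26) and H2AFY2 (0.21) rose with si-RAB23-9. Removing either si-NC library ended every call named here (limma adjusted p up to 0.206).

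Among 22 chaperone and import genes, 0 rose and 5 fell with si-RAB23-1, and 5 rose and 2 fell with si-RAB23-9, where over all genes 8.13% rose and 7.26% fell with si-RAB23-1 and 7.56% rose and 5.69% fell with si-RAB23-9. With si-RAB23-1 the 4 that moved most were MIS18A (-0.67), ANP32E, an H2A.Z chaperone (-0.56), HJURP, the CENP-A chaperone (-0.34), and ASF1B, an H3-H4 chaperone (-0.34). With si-RAB23-9 SPTY2D1, an H3-H4 chaperone gene (-0.74), and the import receptor gene TNPO1 (-0.60) fell, and CHAF1A (0.33) and CHAF1B (0.34), subunits of the replication-coupled assembly factor CAF-1, rose. Each of these 8 calls ended on removal of at least 1 library: si-NC replicate 2 for MIS18A, ASF1B and TNPO1, si-NC replicate 1 for SPTY2D1 and either of them for the others (limma adjusted p up to 0.190).

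S phase genes are given because replication-dependent histone mRNA is tied to that phase. Of 19, 0 rose and 5 fell with si-RAB23-1 (median log2 difference -0.15) and 7 rose and 1 fell with si-RAB23-9 (median 0.18). For si-RAB23-1 the all-gene shares were 8.13% higher and 7.26% lower, and for si-RAB23-9 they were 7.56% higher and 5.69% lower. Subunits of the replicative helicase MCM4 (-0.29), MCM2 (-0.25) and MCM5 (-0.24) and its loader CDC6 (-0.22) fell with si-RAB23-1. With si-RAB23-9 CCNE1, for cyclin E1 (0.42), GINS2 (0.40) and MCM3 (0.26) rose, and RRM2 (-0.62), for a ribonucleotide reductase subunit, fell. All 8 of these calls ended on removal of si-NC replicate 1 or si-NC replicate 2 (limma adjusted p up to 0.185). Between the siRNAs 15 of 19 were higher and 1 lower with si-RAB23-9, whereas the histone genes had 2 of 24 higher and 6 lower and all genes 11.1% higher and 9.89% lower. The part of S phase in the histone values was not tested.

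RNAs without a poly(A) tail were read beside the histone genes. Of 28 such RNAs, 13 were listed at 0 in every library and 3 passed the filter. RN7SL2, an RNA of the signal recognition particle, had 1384 and 1280 FPKM with si-RAB23-1 and 1263 and 1575 FPKM with si-RAB23-9, against 2192 and 1318 FPKM with si-NC. Its si-NC replicate 1 stood above the other 5 libraries, whereas HIST1H2BK was 181 and 177 FPKM in the si-NC libraries. SCARNA6, a small Cajal body RNA, was the one called among them (-0.75 with si-RAB23-9, limma adjusted p = 0.0392), at means of 0.725 FPKM with si-RAB23-9 and 1.90 FPKM with si-NC. It rested on 3 and 4 reads with si-RAB23-9, against 13 and 9 with si-NC, and passed the filter only through si-NC and 1 si-RAB23-1 library, so some difference was built into its selection. The call ended on removal of any single library of these groups (up to 0.178).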

How the data were processed

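RNA from 6 libraries of KYSE30 cells was measured as FPKM, in the gene table the authors deposited. Per the submitters' processing notes, the build was hg19 and the tools included edgeR 3.8.5, RSEM 1.2.29, STAR 2.5.1b, Trimmomatic 0.36 and FastQC, with no roles stated. The table's 58735 gene positions all equal GENCODE 29 on GRCh38, and the coordinates printed are these. FPKM times gene length came out as whole multiples of 1 read in every library (100% of values, tolerance 0.01 read), which gave the read numbers and library totals. Table columns were matched to libraries by their titles. The members and lists were chosen with earlier results of these data known.

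The 14352 genes that reached 1 FPKM in 2 or more libraries were tested on log2(FPKM + 1) with limma 3.58.1 in R 4.3.3, with 1 mean per group, a trend of variance with level, 3 residual degrees of freedom and Benjamini-Hochberg adjustment over all of them, two-sided, called at an adjusted p under 0.05. The fit was tested on simulated data. Depth sets the precision: a count of few reads, as for HIST2H2AC, allows wide intervals, and these cover counting error only. Named were all histone genes tested, the 5 below the filter with the highest mean, RAB23, and up to 4 called genes per companion list and comparison with si-NC. Alternatives were another pseudocount, other filters, other scalings, the 4 libraries of each comparison, a replicate block, leaving out each library, and limma-voom on the recovered reads. The count models planned were not run, because the deposited unit is FPKM.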

Additional observations from a re-analysis of the deposited data

Results flagged for a closer look

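For HIST1H2BK, HIST1H4I and HIST1H2AC the siRNAs lay on opposite sides of si-NC, every library of each. How many of all genes tested show this order was not counted, so the order alone is a description. Against si-NC, HIST1H2AC was called with neither siRNA and HIST1H2BK with si-RAB23-9 only. Between the siRNAs all 3 passed the test (si-RAB23-9 minus si-RAB23-1, limma). The log2 difference was -1.03 for HIST1H2BK, -0.94 for HIST1H4I and -0.46 for HIST1H2AC, and the first 2 kept their call with any 1 library left out. HIST1H4I lies inside the RefSeq span of HIST1H2BK, and the part of shared reads in the HIST1H4I value was not tested.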

How the results depend on the processing

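Counts of called histone genes moved with the settings. Without a filter, 1 was higher and 0 lower for si-RAB23-1 against si-NC (2 and 2 as reported), 0 higher and 4 lower for si-RAB23-9 against si-NC (2 and 7), and 0 higher and 3 lower for si-RAB23-9 against si-RAB23-1 (2 and 6). Over all genes the calls without a filter also fell, to 543 higher and 506 lower (1167 and 1042 as reported), 552 and 431 (1085 and 817), and 771 and 687 (1599 and 1420). With a mean FPKM of at least 5, 1 was higher between the siRNAs (1425 over all genes). Median-of-ratios and TMM scaling each left 1 higher with si-RAB23-9 against si-NC (1014 and 1010 over all genes). Using the 4 libraries of a comparison left 1 higher with si-RAB23-1 against si-NC (633 over all genes) and 1 higher between the siRNAs (1036). With the replicate block, 1 was higher and 1 lower with si-RAB23-1 against si-NC (856 and 799 over all genes). It left 1 higher between the siRNAs (1299 over all genes). Replicate numbers did not pair the libraries: deviations of same-numbered libraries correlated at -0.0562, -0.0158 and 0.0610 over 14352 genes. Limma-voom was added after the data were seen. It took the place of the planned count models (edgeR and DESeq2), not run because the unit is FPKM. For si-RAB23-1 against si-NC it gave 5 lower with library totals (2178 over all genes). With TMM sizes it gave 4 higher and 4 lower there (1891 and 1908). Between the siRNAs it gave 1 higher and 9 lower with either. With TMM sizes HIST1H2BK and HIST1H2AC were called higher with si-RAB23-1 (limma-voom adjusted p = 0.0030 and 0.0278), and HIST1H4I was not (0.0894). HIST3H2A was called higher too (0.0451), and HIST1H3E and HIST2H2BE lower (0.0063 and 0.0374). Each of these 3 moved the same way with si-RAB23-9. Between the siRNAs HIST1H2BD, HIST2H2BE and HIST1H2BG, not called in the main test, were lower with si-RAB23-9 (limma-voom adjusted p = 0.0026, 0.0190 and 0.0342). Leaving out 1 library gave 0 to 3 higher and 0 to 3 lower with si-RAB23-1, 0 to 2 higher and 3 to 6 lower with si-RAB23-9, and 0 to 2 higher and 4 to 5 lower between the siRNAs. The calls over all genes then ranged from 173 to 954 higher and 165 to 866 lower with si-RAB23-1, from 143 to 1173 and 115 to 902 with si-RAB23-9, and from 375 to 1376 and 330 to 1315 between the siRNAs. The causes were not tested.

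The log2 ratio of summed histone FPKM was 0.16 for si-RAB23-1 over si-NC (0.09 to 0.23 with 1 library left out, 0.0801 without HIST1H2BK, 0.0698 also without HIST1H4I, 0.0855 in recovered reads scaled to library size). For si-RAB23-9 over si-NC it was -0.45 (-0.51 to -0.39; -0.21 and -0.17 without these genes; -0.36 in recovered reads). For si-RAB23-9 over si-RAB23-1 it was -0.61 (-0.68 to -0.53; -0.29 and -0.24; -0.45). 

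Values of genes that were not called changed sign when 1 library was left out, with these ranges of the log2 difference. For si-RAB23-1 against si-NC they were HIST1H2BH (-0.0809 to 0.20), HIST1H2BL (-0.0471 to 0.51), HIST1H2BO (-0.32 to 0.17), HIST1H4E (-0.13 to 0.25) and HIST4H4 (-0.0149 to 0.13). For si-RAB23-9 against si-NC they were HIST1H2BH (-0.0744 to 0.0179), HIST1H2BL (-0.37 to 0.19), HIST1H2BO (-0.15 to 0.10), HIST1H4E (-0.31 to 0.0690) and HIST2H2AC (-0.27 to 0.16). Between the siRNAs they were HIST1H2AE (-0.24 to 0.0682), HIST1H2AI (-0.0298 to 0.44), HIST1H2BH (-0.23 to 0.0527), HIST1H2BO (-0.20 to 0.29), HIST1H3E (-0.18 to 0.0463) and HIST1H4H (-0.0296 to 0.12). Depth limits the genes with few reads most, as for HIST2H2AC, and the smallest detectable difference was not measured.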
